A study of Homo sapiens with 12 samples.

Results

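E2F1 binding was compared between hTERT-RPE1 cells, a normal retinal pigment epithelial line immortalized with telomerase, and U2OS cells, an osteosarcoma line. A region was taken as enriched when it held at least 30 ChIP sequences and a raw ratio of at least 3, where the raw ratio divides the ChIP count by the IgG count after 1 is added to each. By this rule 1742 of the 214407 regions listed for hTERT-RPE1 cells (0.812%) and 841 of the 125446 listed for U2OS cells (0.670%) were enriched. These 2583 regions, out of 339853 listed for E2F1 and 1636159 listed over the 8 libraries with a list, joined into 2030 loci. Members of both lines met at 543 loci, while 1195 loci held regions of hTERT-RPE1 cells and 292 held regions of U2OS cells alone.

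E2F1 is a transcription factor that binds DNA with a DP partner, mainly at promoters, and switches on genes for DNA replication and entry into S phase. In resting and early G1 cells it is held back by the retinoblastoma protein, and cyclin-dependent kinases release it. The study mapped it beside NPAT, CASP8AP2 and HINFP, regulators of the replication-dependent histone genes, which are expressed in S phase.

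In each line chromatin was cross-linked with 1% formaldehyde, sheared to 200 to 400 bp and precipitated with 5 µg of the same E2F1 antibody or of normal rabbit IgG. There was 1 E2F1 library and 1 rabbit IgG library per line, and the labels name no treatment or synchronization of the cells. With 1 library per line, the lines could not be tested against each other, and intervals cover counting error only. By the constant in the deposited fold change, the E2F1 library of hTERT-RPE1 cells had 1.06 times the depth of its IgG library, and that of U2OS cells 0.942 times. The raw ratio does not correct for this, so a raw ratio of 3 was a lower fold change in hTERT-RPE1 than in U2OS cells. The total reads of a library are not known from the lists. Positions are on NCBI36, and genes were not assigned to regions because no annotation of this build was used here.

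The enriched regions were slightly longer in hTERT-RPE1 than in U2OS cells, and the median Height, counts and ratio were close. The median length was 730 bp in hTERT-RPE1 (95% interval 718 to 746 bp, range 327 to 2324 bp) and 692 bp in U2OS cells (677 to 712 bp, range 360 to 2138 bp). The median Height, read here as the pile-up of reads at the summit, was 26 in hTERT-RPE1 (range 8 to 194) and 27 in U2OS cells (range 9 to 192). The median region held 45 ChIP and 10 IgG sequences in each line. The raw ratio had a median of 4.20 in hTERT-RPE1 and 4.12 in U2OS cells, with upper quartiles of 5.50 and 5.38. Counts and ratios are described here without a test, as the rule chose the regions by them. Over all listed regions the median length was 290 and 299 bp and the median Height was 9 in each line, so that the enriched regions were the longer and higher ones, and the minimum on ChIP sequences favors both. The summit held a median of 56.2% of the ChIP sequences of an enriched region in hTERT-RPE1 and 60.3% in U2OS cells, against 83.3% and 80.0% over all listed regions.

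Many regions lay close to the limits. In hTERT-RPE1 cells 72 regions had exactly 30 ChIP sequences and a sufficient ratio, while another 99 had 29 sequences and were left out. In U2OS cells these numbers were 44 and 38. A ratio of exactly 3 was found at 63 enriched regions of hTERT-RPE1 cells and 26 of U2OS cells, and the highest ratios just outside were 2.98 and 2.95.

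Of the enriched regions of hTERT-RPE1 cells, 547 overlapped an enriched region of U2OS cells (31.4%, exact binomial 95% interval 29.2 to 33.6%). Of those of U2OS cells, 549 overlapped an enriched region of hTERT-RPE1 cells (65.3%, 62.0 to 68.5%). They formed 553 overlapping pairs. Since the hTERT-RPE1 list was longer, its share was bound to be the lower. With only the 841 regions of hTERT-RPE1 cells with the highest raw ratio, a comparison added after the data were seen, the shares were 41.4% and 41.6%.

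Most regions enriched in only 1 line were also listed in the other line, under a limit. Of the 1195 such regions of hTERT-RPE1 cells, 205 had a U2OS region with a sufficient ratio but under 30 ChIP sequences, 307 had one with 30 or more sequences but a ratio under 3, and 467 had one under both limits. The remaining 216 (18.1%, 15.9 to 20.4%) had no U2OS region in the list. Of the 292 regions of U2OS cells, 44 fell short in hTERT-RPE1 cells by the count, 139 by the ratio and 87 by both. Only 22 (7.53%, 4.78 to 11.2%) had no listed region of hTERT-RPE1 cells. A missing entry is not a count of 0, because the lists start at a Height of 8.

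**Figure D1:**
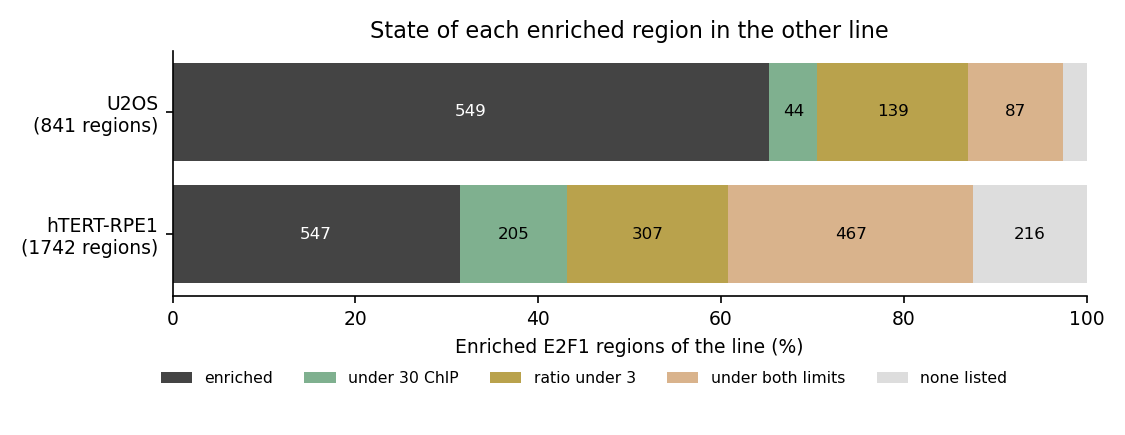
Bars divide the enriched E2F1 regions of each line (percent of the line's regions on the x axis) by their state in the other line: enriched there too, listed under 30 ChIP sequences, listed with a raw ratio under 3, listed under both limits, or not listed. Numbers in the bars are regions. The share also enriched was 31.4% for hTERT-RPE1 cells and 65.3% for U2OS cells, and 216 and 22 regions had no listed region in the other line.

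Together, 87.6% of the enriched regions of hTERT-RPE1 cells and 97.4% of those of U2OS cells overlapped a listed region of the other line, enriched or not. Over all listed regions these shares were 9.76% and 16.6%. Enriched regions are longer, and a longer region meets others more readily. Counted by the summit alone, 83.0% of the enriched summits of hTERT-RPE1 cells lay inside a listed U2OS region, against 6.81% of all listed summits. For U2OS cells the values were 95.1% and 11.7%.

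Where a region of hTERT-RPE1 cells alone was listed in U2OS cells (979 regions), the U2OS counts were a median of 23 ChIP and 11 IgG sequences, against 42 and 10 in hTERT-RPE1 cells. The median raw ratio was 2.24 in U2OS cells and 4 in hTERT-RPE1 cells, and 648 of the 979 still had a deposited fold change above 2 in U2OS cells. For the 270 listed regions of U2OS cells alone, the hTERT-RPE1 counts were a median of 31 ChIP and 14 IgG sequences, against 37.5 and 9 in U2OS cells, with median raw ratios of 2.43 and 3.88. The listed regions were also shorter in the other line. Their median length was 490 bp in U2OS against 727 bp in hTERT-RPE1 cells for the 979 regions. For the 270 regions it was 567.5 bp in hTERT-RPE1 against 693.5 bp in U2OS cells. Per listed region and not per bp, the regions of hTERT-RPE1 cells had fewer ChIP and about as many IgG sequences in U2OS cells. The regions of U2OS cells had somewhat fewer ChIP and more IgG sequences in hTERT-RPE1 cells. The rule itself sets the direction of these differences, since each region was chosen for its values in 1 line. The raw ratio in the other line was under 1 at 15 of the 979 and 3 of the 270 regions. Among all listed regions that met a listed region of the other line, it was under 1 at 8.38% for hTERT-RPE1 and 5.74% for U2OS cells.

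Stronger regions were shared more often. Among regions of hTERT-RPE1 cells with 30 to 49 ChIP sequences, 161 of 1040 were enriched in U2OS cells too (15.5%, 13.3 to 17.8%). With 50 to 99 sequences, 285 of 588 were (48.5%, 44.4 to 52.6%), and with 100 or more, 101 of 114 were (88.6%, 81.3 to 93.8%). In U2OS cells the shares rose from 50.7% (250 of 493) over 83.6% (235 of 281) to 95.5% (64 of 67). The order was the same by raw ratio, from 21.4% at ratios under 4 to 67.7% at 10 or more for hTERT-RPE1 cells, and between 55.9% and 82.4% for U2OS cells in the same order. At ratios of 10 or more the intervals were 54.9 to 78.8% for 65 regions of hTERT-RPE1 cells and 65.5 to 93.2% for 34 of U2OS cells. They cover counting error only and do not compare the lines. The limit of 30 sequences enters these shares, as a region far above it in 1 line can hold fewer reads in the other and still pass.

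**Figure D2:**
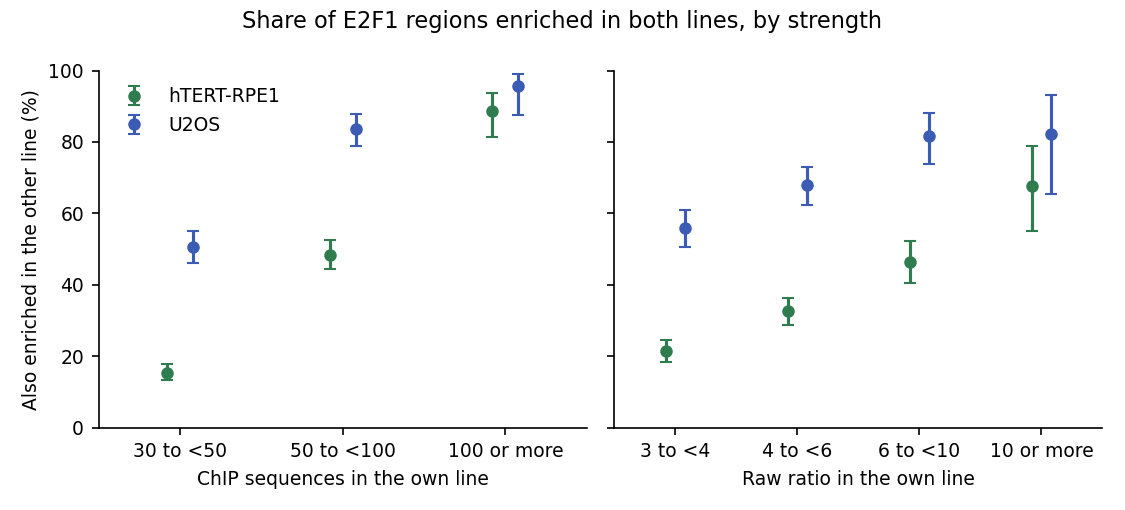
Points give the share of enriched E2F1 regions that were also enriched in the other line (y axis, percent), by the ChIP count (left) and the raw ratio (right) of the region in its own line. Bars are exact binomial 95% intervals. Over the classes of ChIP count the share rose to 88.6% from 15.5% for hTERT-RPE1 cells, and to 95.5% from 50.7% for U2OS cells.

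Shared regions had more sequences than the others in both lines. The rule favors this, since a shared region had to reach the limits in both lines. In hTERT-RPE1 cells the median was 64 ChIP sequences at shared regions and 40 at the rest, and the median Height was 39 and 22. In U2OS cells the medians were 52 and 37 ChIP sequences and Heights of 33 and 21. The lengths did not separate them: 729 bp (701 to 758 bp) against 730 bp (716 to 747 bp) in hTERT-RPE1 cells, and 689 bp (660 to 717 bp) against 700 bp (680 to 731 bp) in U2OS cells.

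At most of the 553 shared pairs the summits of the lines were close. The overlap that defines a pair itself bounds this distance, and no background distance is given here. The summits lay a median of 26 bp apart (quartiles 9 and 55 bp), 396 pairs had summits within 50 bp and 9 had them on the same base. Only 30 pairs had summits over 200 bp apart, and 10 were over 500 bp apart. One region of the pair lay wholly inside the other at 269 pairs. The largest distance, 1588 bp, was at chr5:126141222-126142290 in hTERT-RPE1 cells, where the U2OS region reached from 126140162 to 126141682. The counts there were 87 ChIP and 15 IgG sequences in hTERT-RPE1 and 108 and 28 in U2OS cells, with Heights of 36 and 37. This pair was chosen after its values were seen.

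**Figure D3:**
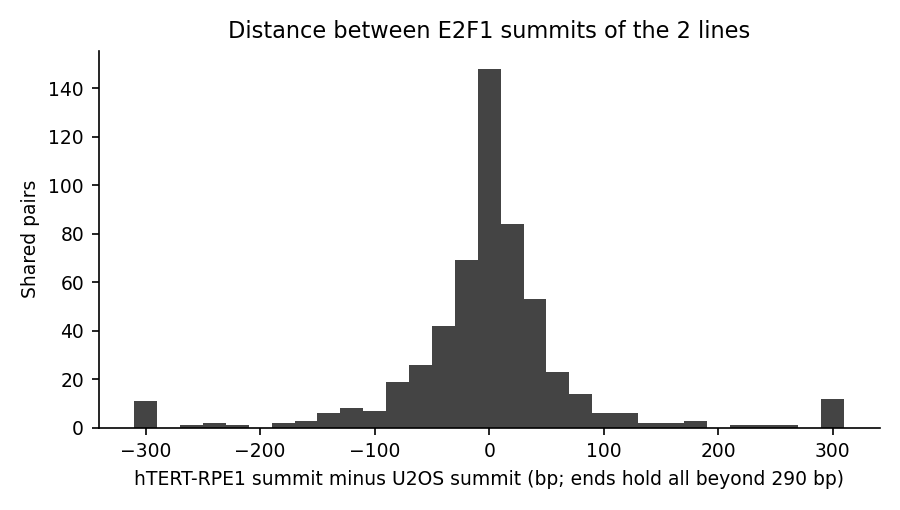
The histogram counts shared pairs (y axis) by the position of the hTERT-RPE1 summit minus that of the U2OS summit (x axis, bp). Pairs beyond the ends of the axis are collected in the outermost bars. Most pairs stand within 50 bp of 0 (396 of 553).

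Lengths at the pairs differed little as a whole, with a median hTERT-RPE1 over U2OS quotient of 1.02 (95% interval 0.986 to 1.05). Height was higher in hTERT-RPE1 cells at 347 pairs and in U2OS cells at 190, with a median quotient of 1.15 (1.11 to 1.21). The relative depth of the E2F1 libraries of the lines is not known, so that this quotient cannot be told apart from a difference in depth. The median quotient of the raw ratios was 1.08 (1.03 to 1.15), but 0.959 (0.921 to 1.02), on the other side of 1, with the deposited fold change, which takes in the depth of each ChIP library relative to its IgG library. Across the pairs Spearman's rho between the lines was 0.664 for Height, 0.375 for length, 0.335 for the raw ratio and 0.246 for the IgG count. These describe 553 regions of the same libraries, which share depth and base composition and are not replicates.

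**Figure D4:**
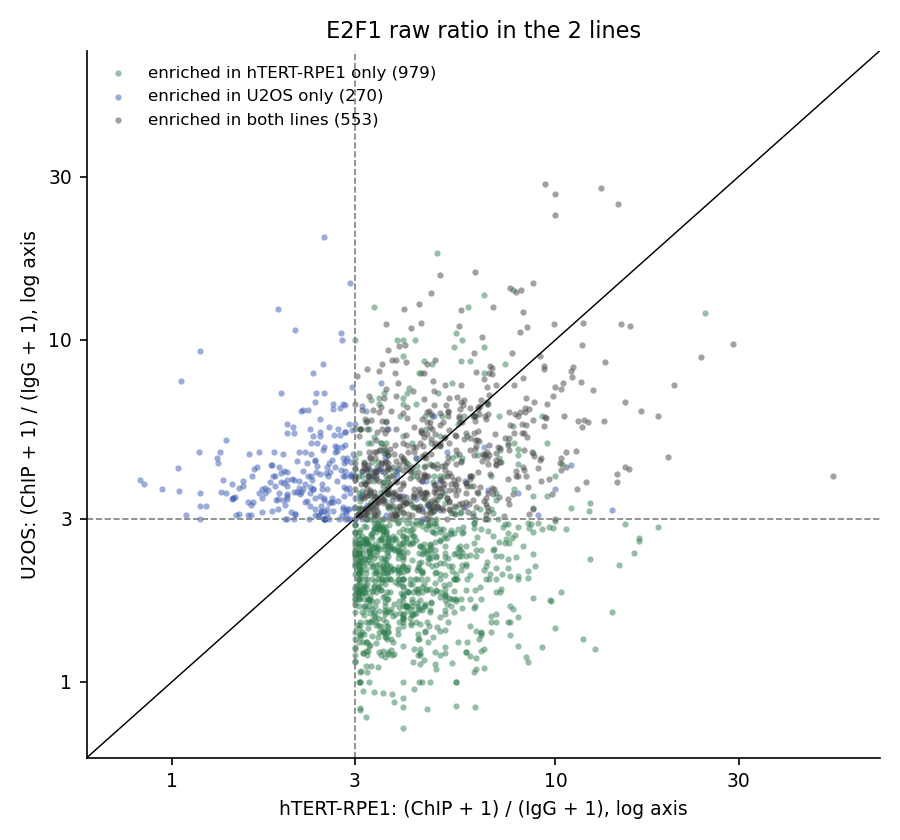
Each point is an E2F1 region enriched in at least 1 line and listed in both, with its raw ratio for hTERT-RPE1 (x axis) and U2OS cells (y axis), both on log axes. Dashed lines mark the limit of 3 and the solid line equal ratios. Points of 1 line that lie above 3 in both had under 30 ChIP sequences in the other line, and the 553 pairs enriched in both lie on either side of the solid line, with a median quotient of 1.08 (0.959 with the deposited fold change).

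The raw ratio differed by more than 2-fold at 70 of the 553 pairs. It was higher in hTERT-RPE1 cells at 44 (7.96%) and in U2OS cells at 26 (4.70%), while over all 22229 overlapping pairs of listed regions the shares were 20.4% and 10.7%. Both shares were below the background, and nothing is read from this, since each region of a shared pair had to reach a ratio of 3 and 30 ChIP sequences. With the deposited fold change the order of the lines was reversed. It was more than 2-fold higher in hTERT-RPE1 cells at 30 pairs and in U2OS cells at 40. The 95% counting interval of the quotient of raw ratios lay above 1 at 14 of the 553 pairs and below 1 at 8. Counting error alone leaves some of 553 such intervals outside 1, so no pair is called different from this. The intervals of pairs picked by their quotient, given below, are not tests either. At the 44 pairs with the higher ratio in hTERT-RPE1 cells, the ChIP medians were 66 in hTERT-RPE1 and 49 in U2OS cells and the IgG medians were 5 and 11. The median quotient was 1.25 for ChIP and 0.5 for IgG plus 1, and IgG was the higher in U2OS cells at 39 pairs. At the 26 pairs with the higher ratio in U2OS cells, the ChIP medians were 66.5 and 66, and the IgG medians 14 and 5. The IgG count was higher in hTERT-RPE1 cells at all 26 of these pairs, and the ChIP count at 13. Nothing is read from these medians, as the pairs were picked by the raw ratio and the limit of 30 held for the ChIP count only.

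The pair with the largest quotient, 13.2 (95% counting interval 1.71 to 103), was at chrX:48440247-48440656. It had 52 ChIP and 0 IgG sequences in hTERT-RPE1 cells, the only enriched region of that line without an IgG sequence and the one with its highest ratio, 53, where the ratio hangs on the 1 added to the IgG count. The U2OS region had 67 ChIP and 16 IgG sequences over 751 bp instead of 410 bp, and a ratio of 4. The E2F1 count was the higher in U2OS cells, although the ratio was the lower. Next came chr11:73981086-73981631, with 97 ChIP and 4 IgG sequences in hTERT-RPE1 cells against 49 and 10 in U2OS cells and a quotient of 4.31 (1.42 to 13.1). At chr3:128799713-128800382 the counts were 86 and 5 against 45 and 11, and at chr5:170746824-170747716 they were 108 and 6 against 62 and 14. At chr5:40791639-40792139 they were 86 and 5 against 76 and 18. The quotients of these 3 pairs were between 3.58 and 3.78, and at all of them the summits of the lines lay within 13 bp.

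In the other direction the quotients of the raw ratio were smaller. With the deposited fold change, the hTERT-RPE1 over U2OS quotients of the 5 pairs below were 0.287 to 0.308. Those of the 5 pairs above were 11.8, 3.84, 3.37, 3.30 and 3.19. Apart from the pair on chromosome X, the 2 directions then differed less. At chr4:1692887-1693238, with 34 ChIP and 6 IgG sequences in hTERT-RPE1 and 30 and 1 in U2OS cells, the U2OS ratio was 3.10 times higher, with an interval from 0.599 to 16.0 that includes 1. At chr5:137117980-137119001 the counts were 100 and 27 against 77 and 6, which gave a ratio 3.09 times higher in U2OS cells (1.28 to 7.44). At chr2:113119486-113120670 they were 120 and 29 against 134 and 10, and 3.04 times (1.46 to 6.33). The highest ratio of the U2OS library, 28.6, was at chr1:200577602-200578058, with 142 ChIP and 4 IgG sequences. The hTERT-RPE1 region there had 93 and 9 sequences and a ratio of 9.40, and the summit was on the same base in both lines. At chr6:20509558-20510449 the counts were 103 and 21 in hTERT-RPE1 and 40 and 2 in U2OS cells, where the interval, 0.821 to 10.2 times, again included 1.

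Some regions were strong in both lines. Ranked by the lower ratio of the pair, chr7:148212138-148213053 came first, with 174 ChIP and 11 IgG sequences in hTERT-RPE1 (ratio 14.6) and 49 and 1 in U2OS cells (25). It was followed by chr11:58668392-58669093, with 157 and 11 sequences (13.2) against 138 and 4 (27.8), and chr7:44854028-44854992, with 117 and 9 (11.8) against 178 and 15 (11.2). At chr19:10540172-10541336 the counts were 207 and 13 (14.9) in hTERT-RPE1 and 166 and 14 (11.1) in U2OS cells. At chr4:1683640-1684564 they were 218 and 13 (15.6) against 120 and 10 (11.0). The counting interval of the quotient included 1 at all 5 of these pairs.

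By the lower ChIP count of the pair, the strongest was chr2:10179600-10181005, with 216 ChIP and 33 IgG sequences in hTERT-RPE1 and 285 and 42 in U2OS cells, the highest ChIP count among the enriched regions of U2OS cells. Its ratios were 6.38 and 6.65, lower than those of the 5 pairs above, with a higher IgG count. At chr17:53438824-53440483 the counts were 190 and 27 against 176 and 47, with a quotient of 1.85 (1.11 to 3.08). At chr12:47810606-47811262 they were 176 and 15 against 178 and 22, and at chr1:26671548-26672423 they were 158 and 16 against 183 and 21. The region on chromosome 19 named above was the remaining one of the first 5.

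Among the enriched regions of hTERT-RPE1 cells, the highest Height and ChIP count were at chr10:103901439-103902416, with a Height of 194 and 252 ChIP and 43 IgG sequences. In U2OS cells it had a Height of 72 with 96 and 14 sequences, and the ratios were 5.75 and 6.47. Among those of U2OS cells, the highest Height was at chr18:2561124-2562115, with a Height of 192 and 229 ChIP and 27 IgG sequences. It had a Height of 72 with 83 and 8 sequences in hTERT-RPE1 cells, and ratios of 8.21 in U2OS and 9.33 in hTERT-RPE1 cells. So each of these summits was much higher in 1 line, while the ratio was slightly higher in the other. The next highest enriched summits of hTERT-RPE1 cells, at chr12:47810606-47811262, chr16:29971580-29972241, chr19:10540172-10541336 and chr20:5047816-5048878, had Heights of 152, 151, 150 and 145. Their Heights in U2OS cells were 129, 76, 142 and 96. Those of U2OS cells, at chr8:27750420-27751786, chr19:10540533-10541184, chr9:35655008-35655441 and chr1:26671544-26672445, had Heights of 148, 142, 139 and 135, against 72, 150, 71 and 111 in hTERT-RPE1 cells. All of these were enriched in both lines.

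Among regions of hTERT-RPE1 cells that were not listed or lay under both limits in U2OS cells, the highest ChIP count was at chr8:95976399-95978505. It had 167 ChIP and 27 IgG sequences, a Height of 47 and a length of 2107 bp. In U2OS cells it had 18 and 15 sequences over 405 bp, a Height of 14 and a ratio of 1.19. At chr3:161649856-161650880 there were 139 ChIP and 22 IgG sequences in hTERT-RPE1 cells, with a Height of 99, and no U2OS region was listed. At chr10:43211929-43213077, likewise without a listed U2OS region, there were 98 and 21 sequences and a Height of 41. The next, chr11:122437809-122439129 and chr17:7327800-7329141, had 95 and 93 ChIP sequences, with ratios of 3 and 3.13 at the limit in hTERT-RPE1 and of 2.56 and 2.50 in U2OS cells. Their listed lengths were 1321 and 1342 bp in hTERT-RPE1 against 459 and 392 bp in U2OS cells. So they differed between the lines mainly in read count and listed length, and less in ratio.

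The first 5 regions of U2OS cells of this kind had lower ChIP counts, but they came from a smaller set. By median the sets were close. Regions under both limits in the other line had 38 ChIP sequences in hTERT-RPE1 and 36 in U2OS cells. Those without a listed counterpart had 36 and 35. The highest count of U2OS cells was at chr20:32354308-32355073, with 58 ChIP and 13 IgG sequences and a ratio of 4.21. There hTERT-RPE1 cells had 26 and 25 sequences and a ratio of 1.04. The following 4 regions, chr8:28535149-28536042, chr18:11970925-11971879, chr19:54158384-54159534 and chr13:112910858-112911519, had 50 to 56 ChIP sequences and ratios of 3 to 4.31. The hTERT-RPE1 list held a region at each of the 4, with 12 to 28 ChIP sequences and ratios of 1.81 to 2.60. All 22 U2OS regions without a listed counterpart had between 30 and 48 ChIP sequences. The 216 of hTERT-RPE1 cells reached 139, with a median of 36.

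Enriched regions were found on chromosomes 1 to 22 and X in both lines, and none on the mitochondrial genome or contigs. Relative to listed regions, chromosome 19, which is rich in genes, held the most: 134 of 4763 in hTERT-RPE1 (28.1 per 1000) and 53 of 2167 in U2OS cells (24.5 per 1000). It held 7.69% and 6.30% of the enriched regions but 2.22% and 1.73% of all listed ones. Chromosomes with very many listed regions in 1 line had no such excess of enriched ones. Chromosome 10 held 10.1% of all listed regions of hTERT-RPE1 cells and 4.99% of the enriched ones. Chromosome 8 held 10.9% of the listed regions of U2OS cells and 3.33% of the enriched ones.

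The number of enriched regions was higher in hTERT-RPE1 cells on every chromosome with any, by 1.48 times on chromosome 22 up to 6.12 times on chromosome 13. On chromosome 13 there were 49 regions in hTERT-RPE1 and 8 in U2OS cells, and 6 of the 49 were shared (12.2%). On chromosome 3 there were 88 and 22, with 16 of the 88 shared (18.2%). On both, the share of listed regions was lower in U2OS cells as well: chromosome 13 held 2.66% of the listed regions of hTERT-RPE1 and 0.741% of those of U2OS cells, and chromosome 3 held 6.68% and 4.35%. Per 1000 listed regions, 8.59 were enriched on chromosome 13 in hTERT-RPE1 and 8.61 in U2OS cells. On chromosome 3 these rates were 6.14 and 4.03. On chromosome X, with 6184 listed regions in hTERT-RPE1 and 427 in U2OS cells, 16 and 8 regions were enriched, and 7 of the 16 had no listed U2OS region. The rate per 1000 listed was 2.59 in hTERT-RPE1 and 18.7 in U2OS cells there, the higher in U2OS cells. The share of hTERT-RPE1 regions shared with U2OS cells was highest on chromosome 22 (45.7%, 21 of 46). The IgG count of listed regions also varied by chromosome. Its median in hTERT-RPE1 cells was 7 on chromosome 10 and 4 or 5 on the others named here, and in U2OS cells it was 8 on chromosomes 8 and 22, 4 on chromosome 13 and 3 on chromosome X. Its part in these differences was not tested.

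**Figure D5:**
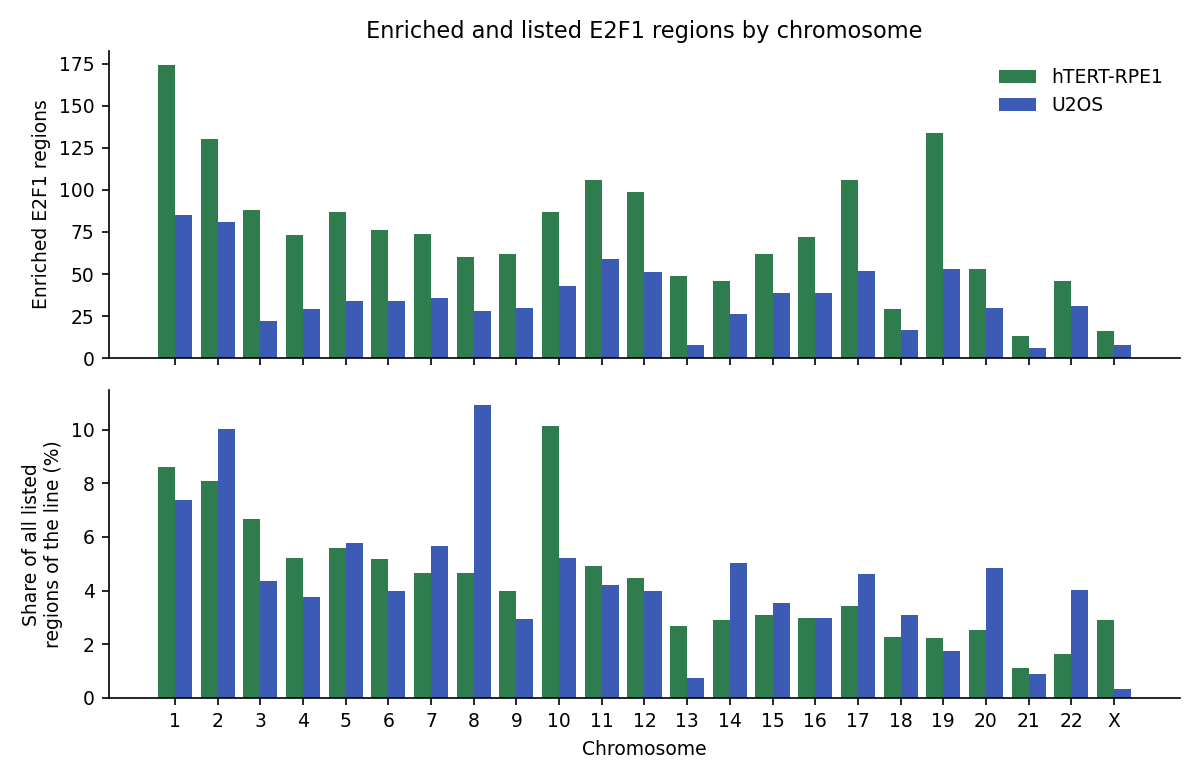
Bars give, for hTERT-RPE1 and U2OS cells, the number of enriched E2F1 regions per chromosome (top) and the share of all listed regions of the line that lay on it (bottom, percent). Chromosome 19 holds 134 and 53 enriched regions with 2.22% and 1.73% of the listed ones, and chromosome 13 holds 49 and 8.

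Few E2F1 regions coincided with the histone gene regulators under the same limits. NPAT, which activates replication-dependent histone genes, was enriched at 39 of the 1742 E2F1 regions of hTERT-RPE1 cells (2.24%, 1.60 to 3.05%), against 0.119% of all listed E2F1 regions. In U2OS cells it was also enriched at 39, of 841 (4.64%, 3.32 to 6.29%), against 0.417%. CASP8AP2, which is needed for histone mRNA synthesis, was enriched at 7 E2F1 regions of hTERT-RPE1 cells (0.402%, background 0.0382%) and 36 of U2OS cells (4.28%, background 0.193%). HINFP, known as an activator of histone H4 genes, was enriched at 6 (0.344%, background 0.0294%) and 4 (0.476%, background 0.0598%). Judged by the E2F1 summit alone, NPAT covered 34 regions in each line (1.95% and 4.04%), against 0.105% and 0.336% of all listed summits. The libraries of E2F1, NPAT and CASP8AP2 in a line share 1 rabbit IgG library, so a low IgG count there raises all 3 ratios. HINFP had goat IgG as its control.

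The number of enriched regions differs between these libraries, with 332 for NPAT, 100 for CASP8AP2 and 92 for HINFP in hTERT-RPE1 and 1195, 386 and 104 in U2OS cells. Read the other way, 11.7% of the NPAT regions of hTERT-RPE1 cells and 3.26% of those of U2OS cells held an enriched E2F1 region. At least 1 of the factors was enriched at 49 of the 1742 E2F1 regions of hTERT-RPE1 cells, where 0.166% of all listed E2F1 regions met one, and at 70 of the 841 of U2OS cells, where 0.615% did. NPAT was found at 17 of the 547 shared E2F1 regions of hTERT-RPE1 cells and 22 of the 1195 others, and in U2OS cells at 23 of 549 and 16 of 292. The intervals of these shares overlapped in each line: 1.82 to 4.93% and 1.16 to 2.77% in hTERT-RPE1 cells, 2.67 to 6.22% and 3.16 to 8.75% in U2OS cells. They cover counting error only and are not a test. Between E2F1 and NPAT summits the median distance was 108 bp for hTERT-RPE1 and 116 bp for U2OS cells, against the 26 bp between the E2F1 summits of the lines.

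Only chr6:27214800-27215309 in U2OS cells was enriched for all 4 factors. Its E2F1 ratio was 3.60, from 35 ChIP and 9 IgG sequences, beside ratios of 9.28 for NPAT, 4.24 for CASP8AP2 and 12.3 for HINFP. Between 26 and 28 Mb of chromosome 6, the stretch with the largest human histone gene cluster, 7 E2F1 regions of hTERT-RPE1 cells and 4 of U2OS cells were enriched, and NPAT was enriched at 6 and 3 of them. Of the E2F1 regions listed in this stretch, 202 and 134, the enriched ones were 3.47% and 2.99%, and 21.8% and 25.4% of those listed overlapped an enriched NPAT region. Shared were chr6:26139842-26140591 (ratios 3.84 and 3.06), chr6:27207481-27209151 (6.26 and 6.27) and chr6:27970063-27970780 (5.79 and 5.14). The highest E2F1 ratio of this stretch, 12.7 at chr6:27913895-27914264, was in hTERT-RPE1 cells and rested on 37 ChIP and 2 IgG sequences.

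Under the same limits, the shares of regions enriched in both lines differed between the factors. They depend on the lengths of the lists, which differed as well, so nothing is read from this about the factors. E2F1, with 31.4% of its hTERT-RPE1 and 65.3% of its U2OS regions, stood beside 32.5% and 9.04% for NPAT, 29% and 7.51% for CASP8AP2 and 51.1% and 45.2% for HINFP. E2F1 was the only factor of the 4 with fewer enriched regions in U2OS than in hTERT-RPE1 cells, and with 1 library each this could not be tested.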

How the data were processed

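The authors precipitated chromatin with antibodies or IgG, sequenced them on Illumina instruments and mapped the reads to NCBI36 (hg18 in the processing notes of the submitters). Each ChIP library has its own list of regions. The aligner, the peak caller and the handling of duplicate reads are not given in the sources used here. The deposited lists give whole counts of ChIP and IgG sequences per region, without normalization. Height, a deposited signal, was read as the pile-up at the summit. The deposited fold change is a ratio of the counts, each plus 1, times a library constant. The p-value deposited by the authors was used only in an alternative.

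The E2F1 regions and the limits (30 ChIP sequences, raw ratio of 3) were chosen with earlier results of these data known. Regions were matched by an overlap of 1 bp, and a region with several partners was given the one with the highest ChIP count when only 1 could be shown. Shares have exact Clopper-Pearson 95% intervals, medians have intervals from order statistics, and quotients of ratios have an approximate log-normal counting interval. Reads without molecular identifiers are not independent molecules, so intervals cover counting error only. No test between lines was run, with 1 library each. The named regions are the first 5 by the lower ratio, by the lower ChIP count, by the quotient in each direction and by Height, and the first 5 by ChIP count among those absent or under both limits in the other line. The regions on chromosome 6 between 26 and 28 Mb and those enriched for several factors were chosen after their values were seen. The planned distance to transcription starts and search for E2F motifs were not run, since no genome or annotation of NCBI36 was used here, and no sequence is shown. The overlap code was tested on simulated regions, where it found 200 of 200 planted overlaps. Tables were handled with pandas 2.3.3 and numpy 2.4.6 under Python 3.11.15, intervals came from scipy 1.17.1 and plots from matplotlib 3.10.9.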

Additional observations from a re-analysis of the deposited data

Results flagged for a closer look

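At a few enriched regions the raw ChIP count exceeded the raw IgG count in 1 line and was below it in the other. The raw ratio then lay on opposite sides of 1. Of the regions enriched in 1 line and listed in the other, this was the case at 15 of 979 of hTERT-RPE1 cells (1.53%) and 3 of 270 of U2OS cells (1.11%), and the difference was not tested. Among all listed regions that met a listed region of the other line, whatever their own ratio, the ratio there was under 1 at 8.38% and 5.74%, so the shares were below the background. The regions were chosen for a ratio of at least 3 in their own line, which sets the direction. The highest ChIP counts among them were at chr14:38713783-38714915, with 63 ChIP and 14 IgG sequences in hTERT-RPE1 cells and 19 and 20 in U2OS cells (ratio 0.952), and at chr7:90731340-90732330, with 63 and 19 against 18 and 23 (ratio 0.792). At all 18 the counts in the other line were low, with at most 20 ChIP and 24 IgG sequences. The raw ratio is also not corrected for depth. In U2OS cells the deposited fold change multiplies it by 1.06, so that the ratio of 0.952 is no longer under 1.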

How the results depend on the processing

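Of 70 values recomputed under an alternative, 33 stayed within the counting interval, or for counts within 1.5 times, of the value given. Among these 70, the single change of direction was the median quotient of the raw ratio, which was 0.959 with the deposited fold change. The counts of pairs that differed by more than 2-fold, not among the 70, also changed direction with it. With at least 50 ChIP sequences there were 702 enriched regions in hTERT-RPE1 and 348 in U2OS cells, of which 36.5% and 73.0% were shared. Their median lengths were 861.5 and 804.5 bp, Heights 39 and 43 and ratios 4.65 and 4.57, and the median quotients were 0.986 for length and 1.09 for Height. With at least 20 sequences there were 4126 and 1805 regions, with 18.5% and 42.2% shared. CASP8AP2 was then enriched at 0.897% of the regions of hTERT-RPE1 and 7.09% of those of U2OS cells, and NPAT at 7.65% in U2OS cells. With a ratio of at least 5 there were 575 and 255 regions, with 23% and 51.4% shared, lengths of 676 and 644 bp, Heights of 32 and 38 and ratios of 6.44 and 6.27. With a deposited fold change of at least 3 the region counts were closer, 1542 and 926. The shares were then 35.7% and 59.7%, and the hTERT-RPE1 ratio 4.44. Under a deposited fold change above 2 with a p-value below 0.00001, there were 1516 and 938 regions, and the shares were 35.7% and 57.9%. With lists of equal length, an alternative added after the data were seen, they were 41.4% and 41.6%. Overlap of 50% of the shorter region, summits within 200 bp and leaving out contigs moved no value beyond these bounds. The share was the higher in U2OS cells in each of these alternatives, though nearly equal with lists of equal length. The causes of these shifts were not tested, beyond what each limit removes by construction. No paired analysis was possible because each group has 1 library. Totals of reads are not known, so limits on counts do not stand for the same depth in both lines.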

Other observations

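Enriched E2F1 regions were scattered, with a median gap of 611259 bp between neighboring summits in hTERT-RPE1 cells and 1148910 bp in U2OS cells. Summits within 2 kb of the next numbered 12 and 7, and within 10 kb 32 and 13. The closest were 474 and 542 bp apart.

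In each E2F1 list, 3 regions had a ChIP count of 0 beside a Height above it, so that the count column does not hold their reads. None of them was enriched.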
